A study of Mus musculus with 17 samples.

Results

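The immunoglobulin variable (V) segments are the gene pieces that encode most of the antigen-binding part of an antibody chain. They were taken here as the lines of the deposited spleen expression table whose gene name begins with Ighv (heavy chain), Igkv (kappa light chain) or Iglv (lambda light chain) and whose mean over the 17 libraries was at least 1 CPM. The name pattern matched 215 lines, and 151 segments passed, out of 38340 named genes in the table: 70 heavy chain, 78 kappa and 3 lambda segments. The 151 held 98.4% to 99.2% of the CPM of all matching lines in each library. The members were thus chosen by their mean CPM over these libraries, and their mean levels are given as a description. The 3 lines just under the minimum were Ighv1-77 at 0.999, Igkv19-93 at 0.997 and Igkv12-38 at 0.960 CPM, and the 3 members just above it were Ighv1-63 at 1.02, Igkv9-123 at 1.05 and Igkv10-95 at 1.14 CPM. Of the members, 4 would fall under 1 CPM without their highest library.

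Every library came from the spleen of a mouse of the strain written as CB57BL/6NCrl in the labels. SLR10 and SLR14 are short stem-loop RNAs of the kind sensed by the cytosolic receptor RIG-I, poly(I:C) is an artificial double-stranded RNA polymer, and the labels do not spell out pppNS. The 4 RNAs SLR10, SLR14, poly(I:C) and pppNS were each given to mice of 3 libraries, and there were 2 libraries for mice given the jetPEI carrier alone (vehicle), and 3 for untreated mice (naive). The treatment protocol is worded alike for every library, naive ones included, and names the SLRs, complexed with the carrier at an N/P ratio of 8 and injected into a vein as 25 µg of RNA in 200 µl. The dose of poly(I:C) and pppNS, the age and sex of the mice and the time from injection to collection are not given in the sources used here. Nothing in the labels says that the libraries of a group came from separate mice beyond their being separate samples, so the p-values below measure the spread between these samples.

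Each B cell assembles its own antibody genes: one V segment is joined to a joining (J) segment, with a diversity segment between them in the heavy chain, and the product is spliced to a constant region. The V segment promoters carry an octamer element and are driven by enhancers near the constant regions once the segment has been joined, so a V transcript in bulk RNA reports the B cells and plasma cells that rearranged that segment. Resting B cells hold little immunoglobulin mRNA per cell and plasma cells hold very much, so a clone of plasma cells can weigh heavily in a pool of RNA. In bulk tissue, fewer cells using a segment and less RNA per cell cannot be told apart.

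In the GENCODE annotation of GRCm38 all 151 members are annotated as immunoglobulin V genes, with 338 to 501 exonic bases (median 361). The 70 heavy chain segments lie on chromosome 12 between 113588267 and 116000461, all on the minus strand, and the 78 kappa segments on chromosome 6 between 67555497 and 70704177, 32 on the plus and 46 on the minus strand. The 3 lambda segments lie on the minus strand of chromosome 16 between 19085017 and 19260859. Germline V segments arose by duplication and are alike in sequence. Of the members, 24 share no 50-base stretch with any of the other transcripts among 459 immunoglobulin V genes and pseudogenes, and 19 share more than 50% of their 50-base stretches with at least one other, so reads of close copies may be split between them or lost. The sources used here do not say how such reads were counted, and levels of close copies are uncertain to that extent.

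The V exons below are reference sequences, not sequences read from these mice, and are printed because their segments lead the results. The first pair holds the highest segment of the data and its closest copy, Iglv1 at chr16:19085017-19085316 and Iglv2 at chr16:19260401-19260700, 97.0% identical over the V exon. Both are read on the minus strand of GRCm38, and capitals mark the 8 bases at which each differs from the other within the stretch shown.
Iglv1: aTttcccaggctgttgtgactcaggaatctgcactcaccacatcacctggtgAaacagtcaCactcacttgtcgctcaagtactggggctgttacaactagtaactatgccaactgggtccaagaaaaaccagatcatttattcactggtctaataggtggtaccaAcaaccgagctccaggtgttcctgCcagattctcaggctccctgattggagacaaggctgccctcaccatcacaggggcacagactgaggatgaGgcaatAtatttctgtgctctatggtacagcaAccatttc
Iglv2: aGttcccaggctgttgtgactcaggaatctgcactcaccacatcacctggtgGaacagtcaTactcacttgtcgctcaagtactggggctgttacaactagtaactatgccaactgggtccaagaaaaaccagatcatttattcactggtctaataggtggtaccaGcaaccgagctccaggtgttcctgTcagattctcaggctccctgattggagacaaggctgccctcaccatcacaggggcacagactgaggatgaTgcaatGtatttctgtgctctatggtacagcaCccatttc

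The next pair, Igkv1-117 at chr6:68121528-68121827 and Igkv1-110 at chr6:68270968-68271267, both on the plus strand, holds kappa segments that ranked among the 10 highest in 16 and 13 of the 17 libraries. They are 96.8% identical, and capitals mark the 10 bases at which they differ in the stretch shown.
Igkv1-117: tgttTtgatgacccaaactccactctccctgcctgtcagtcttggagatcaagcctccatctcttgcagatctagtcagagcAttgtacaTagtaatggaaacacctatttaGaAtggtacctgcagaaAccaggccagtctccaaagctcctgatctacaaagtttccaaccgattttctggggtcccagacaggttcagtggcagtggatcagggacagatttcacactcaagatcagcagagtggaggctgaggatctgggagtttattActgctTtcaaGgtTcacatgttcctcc
Igkv1-110: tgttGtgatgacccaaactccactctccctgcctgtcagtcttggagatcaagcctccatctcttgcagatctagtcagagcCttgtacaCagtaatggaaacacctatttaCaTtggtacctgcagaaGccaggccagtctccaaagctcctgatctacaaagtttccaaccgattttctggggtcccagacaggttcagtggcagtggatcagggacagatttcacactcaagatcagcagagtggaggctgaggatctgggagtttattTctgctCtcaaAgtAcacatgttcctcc

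The last set shows segments that stood far above their usual share in single libraries. Of these, only Igkv5-39 was the highest segment of any library. Igkv5-39 at chr6:69900424-69900721 (minus strand) is 91.6% identical to its closest member Igkv5-45, and Igkv14-130 at chr6:67791214-67791511 (plus strand) is 80.5% identical to Igkv14-111. Both share no 50-base stretch with another V transcript. Ighv5-4 at chr12:113597446-113597745 (minus strand) is 95.4% identical to Ighv5-6, with 19.9% of its 50-base stretches shared. Capitals mark the bases that differ from the closest member named.
Igkv5-39: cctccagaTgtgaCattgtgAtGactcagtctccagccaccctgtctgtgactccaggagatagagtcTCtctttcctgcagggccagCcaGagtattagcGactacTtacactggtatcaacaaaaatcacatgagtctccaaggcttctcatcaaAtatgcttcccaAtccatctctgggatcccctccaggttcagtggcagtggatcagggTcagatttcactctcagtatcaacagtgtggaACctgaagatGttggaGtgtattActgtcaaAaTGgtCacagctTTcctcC
Igkv14-130: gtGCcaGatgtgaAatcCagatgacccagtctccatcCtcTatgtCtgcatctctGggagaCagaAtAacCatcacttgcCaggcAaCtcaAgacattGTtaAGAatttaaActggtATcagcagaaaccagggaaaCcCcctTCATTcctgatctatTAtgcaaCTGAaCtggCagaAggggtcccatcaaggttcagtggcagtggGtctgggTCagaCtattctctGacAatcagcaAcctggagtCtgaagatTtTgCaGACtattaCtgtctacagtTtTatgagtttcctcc
Ighv5-4: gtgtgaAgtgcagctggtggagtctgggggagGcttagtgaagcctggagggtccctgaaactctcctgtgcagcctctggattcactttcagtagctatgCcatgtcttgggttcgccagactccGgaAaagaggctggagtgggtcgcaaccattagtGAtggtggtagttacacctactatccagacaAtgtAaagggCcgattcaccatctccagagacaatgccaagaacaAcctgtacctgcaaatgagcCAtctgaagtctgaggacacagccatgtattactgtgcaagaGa

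The lines of the table held 26.5 to 42.8 M reads per library, with 15.8 to 29.6 M on named genes. Of these, 8338 to 210612 fell on the 151 segments, and 1 read was worth 0.0175 to 0.0431 CPM. CPM here is the authors' normalised value, whose columns sum to 696096 to 1484240. Replicate 3 of pppNS stood apart in these genes before any comparison. Only 131 of its 151 segments had more than 3 reads, against 150 or 151 in each of the other libraries. The 5 lines without a gene name held 46.1% of the reads of this library against 28.1% to 40.4% elsewhere. What those 5 lines count was not examined. The summed erythroid marker level of pppNS replicate 3 was 74219 CPM against 3045 to 40009. B cell markers were present in every library, at a summed 3765 to 7698 CPM over 17 genes, with 6568 in pppNS replicate 3. Results that rest on this library are given with and without it where a mean or fit without it was run.

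Summed over the 151 segments, V transcripts had their highest group mean in naive spleens and, on the authors' CPM, their lowest with pppNS, whose replicate 3 was the lowest library. The naive libraries held 1879, 3685 and 1920 CPM, and the vehicle libraries 2033 and 1250. The SLR10 libraries held 1666, 1402 and 1575 CPM, close to the 1579, 1627 and 1337 of SLR14. Poly(I:C) gave 1361, 896 and 1323 CPM and pppNS 1088, 1022 and 296. The naive values all lay above those of the 4 RNA groups, while the vehicle libraries lay on either side of the SLR values. The mean was 2494 ± 1031 CPM in naive (SD, n = 3), 1641 ± 554 in vehicle (SD, n = 2), 1548 ± 134 in SLR10, 1515 ± 155 in SLR14, 1193 ± 258 in poly(I:C) and 802 ± 439 in pppNS (SD, n = 3 each). Without replicate 3 the pppNS mean was 1055 CPM, and without replicate 2 the naive mean was 1899 CPM. As a share of reads on named genes, which does not use the authors' scaling, V segments took 0.113% to 0.250% with SLR10, SLR14 and poly(I:C), 0.201%, 0.198% and 0.0372% with pppNS, 0.425% and 0.265% in vehicle and 0.378%, 0.713% and 0.359% in naive. Poly(I:C) took 0.194%, 0.113% and 0.189% of these, so that pppNS replicates 1 and 2 lay above every poly(I:C) library on that scale. In CPM, poly(I:C) replicate 2 lay below both of them. As a share of named genes, both vehicle libraries lay above every library of the RNA groups. No test was run on the sum, since the members were chosen with results of these libraries known.

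The constant region genes, which mark the same transcripts at their other end, were highest in the naive libraries too. Their summed level was 8017, 18536 and 10103 CPM in the naive libraries, against 6801 and 4576 in vehicle and 2988 to 5923 in the RNA groups. The ratio of V to constant region CPM was 0.234, 0.199 and 0.190 in the naive libraries and 0.256 to 0.330 in vehicle, SLR10, SLR14, poly(I:C) and the other pppNS libraries, so the naive libraries all lay below those. Set against Igkc and Ighm only, naive replicate 1 at 0.303 lay above SLR10 replicate 2 at 0.291. The ratio to all constant region genes was 0.0660 in pppNS replicate 3, where V segments were low while the kappa constant gene Igkc stood at 1792 CPM, above the 962 and 993 of its group. Joining segments, which lie between V and constant region, summed to 1.21 CPM in that library and 5.30 CPM in naive replicate 3, against 23.4 to 62.9 CPM in the other 15. The cause of these low values was not tested.

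**Figure D1:**
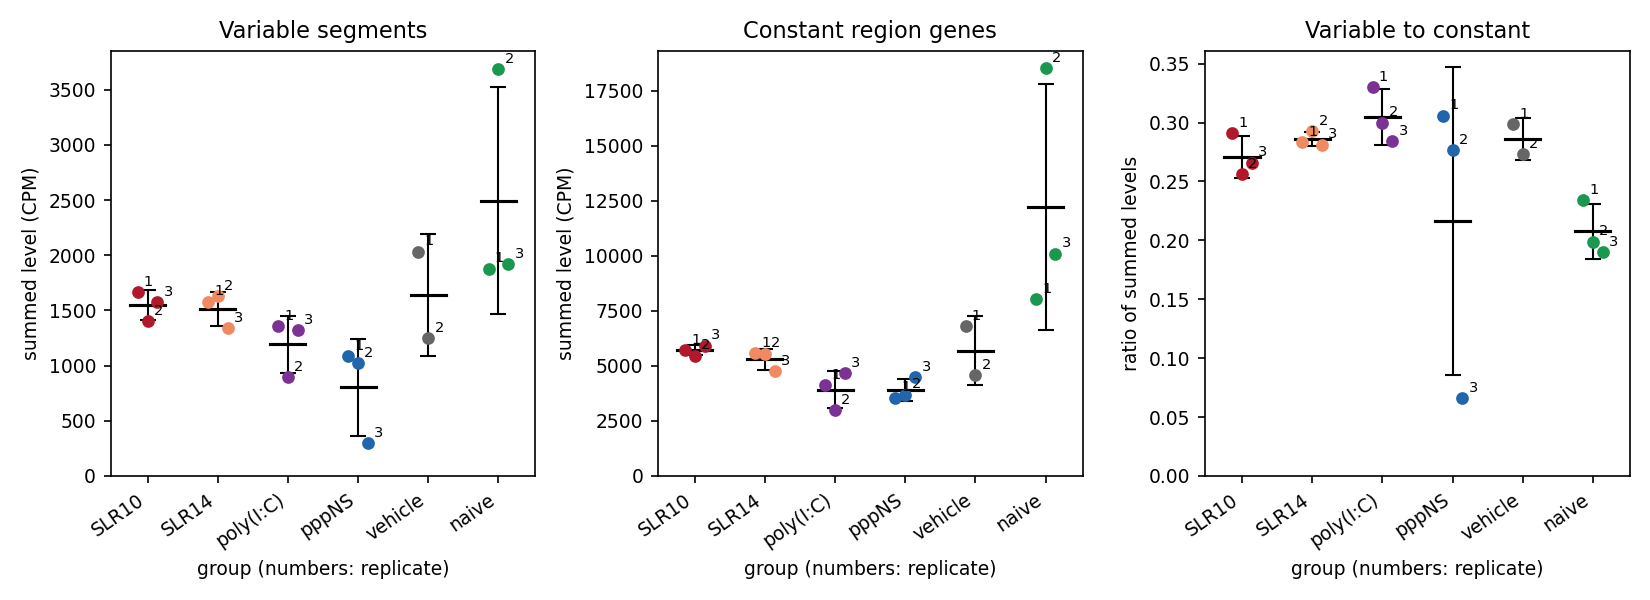
Summed level of the 151 V segments (CPM, left), summed level of the constant region genes (CPM, middle) and their ratio (right) in each library, by group. Points are libraries labelled by replicate number, horizontal bars are group means and error bars are 1 SD, and naive replicate 2 (3685 CPM) and pppNS replicate 3 (296 CPM) mark the ends of the V range.

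By locus, kappa segments took 55.7% to 73.0% of V reads, heavy chain segments 8.67% to 34.5% and lambda segments 4.69% to 18.3%. The heavy chain share was 25.1% to 34.5% in 15 libraries, with 22.7% in naive replicate 3 and 8.67% in pppNS replicate 3, the libraries that were also lowest in joining segments. Vehicle held 33.4% and 32.9% from the heavy chain, above the 28.6%, 28.9% and 28.7% of SLR10 and the 28.2%, 30.4% and 25.1% of SLR14, a pattern described without a test. Poly(I:C) held 29.7%, 29.4% and 31.5%, and pppNS replicates 1 and 2 held 32.4% and 34.5%. Naive held 33.7%, 32.5% and 22.7%, the last below every SLR value. Lambda segments took 18.3% in pppNS replicate 3 and 4.69% in naive replicate 2, and 6.94% to 10.9% elsewhere. In mouse, most antibodies carry a kappa chain, and only a few lambda segments exist.

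**Figure D2:**
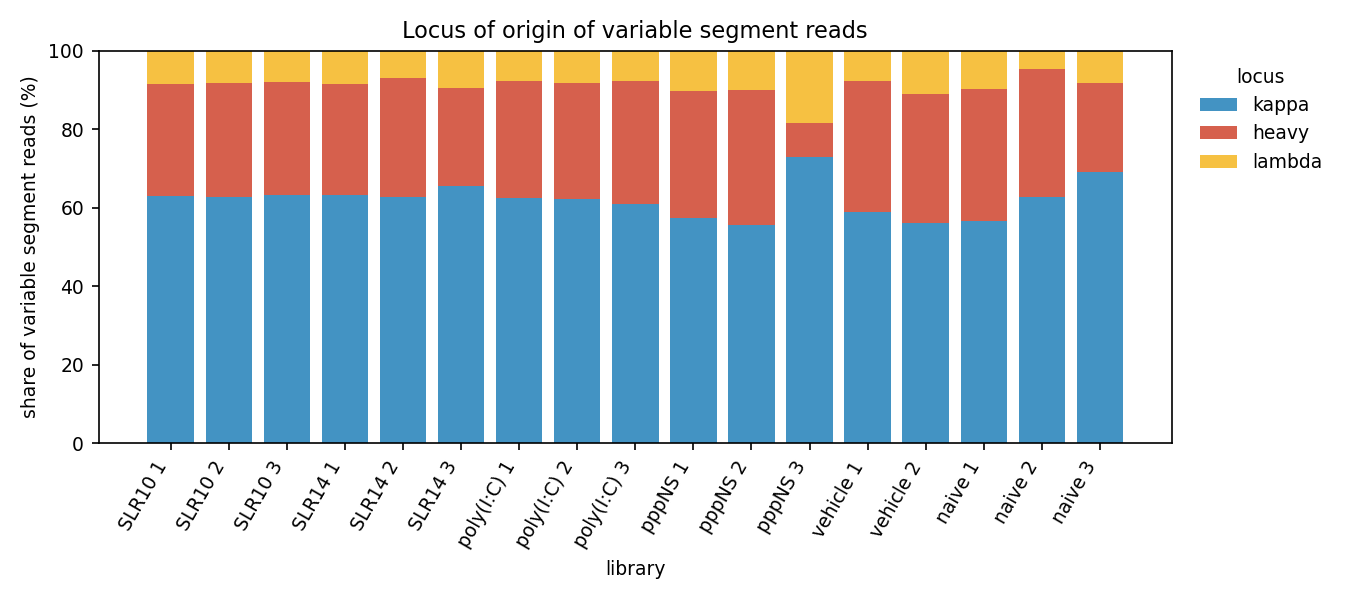
Share of V segment reads (%) from the kappa, heavy chain and lambda loci in each of the 17 libraries, as stacked bars starting at 0. The heavy chain part is 8.67% in pppNS replicate 3 and 22.7% in naive replicate 3, against at least 25.1% in the other libraries.

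Among the members, mean levels ran from 1.02 to 74.8 CPM with a median of 5.78, and 80 segments had a mean of at least 5 CPM. Iglv1 was highest both in CPM and per length, at 191 CPM per kilobase of exon. By the mean, Igkv5-39 followed at 152, Igkv1-117 at 127 and Igkv1-135 at 123 CPM per kilobase. The place of Igkv5-39 came from single libraries: its mean was 114 CPM per kilobase without SLR14 replicate 2, which is place 5, and its median over the 17 libraries was 58.0, against 122 for Igkv1-117 and 129 for Igkv1-135. Kappa segments had a median mean level of 8.69 CPM and heavy chain segments one of 4.24 CPM. By family, the 35 Ighv1 segments, the largest heavy chain family, held a median 13.2% of V reads, the 7 Igkv1 segments 11.1% and the 20 Igkv4 segments 9.44%.

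The 10 highest segments of a library held 26.9% to 34.2% of its V reads in 14 of the 17 libraries. The exceptions were SLR14 replicate 2 at 37.8%, naive replicate 2 at 38.3% and pppNS replicate 3 at 42.9%. Group means of this share were 29.1% ± 1.3 in SLR10, 31.8% ± 5.33 in SLR14, 29.8% ± 1.52 in poly(I:C), 33.4% ± 8.44 in pppNS and 33.3% ± 4.35 in naive (SD, n = 3 each), and 32.3% ± 2.59 in vehicle (SD, n = 2). The wide pppNS SD rests on replicate 3, beside 30.4% and 26.9% in replicates 1 and 2. Differences between the group means were not tested. Without replicate 3 the pppNS mean was 28.6%. The inverse Simpson index, the number of equally abundant segments that would give the same evenness, was 53.8 to 68.0 in 14 libraries. It was 27.8 in SLR14 replicate 2, 33.1 in pppNS replicate 3 and 46.3 in naive replicate 2. The number of segments needed to reach 50% of V reads was 14 in pppNS replicate 3, 18 in naive replicate 2, 19 in vehicle replicate 1 and 20 to 29 in the others.

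**Figure D3:**
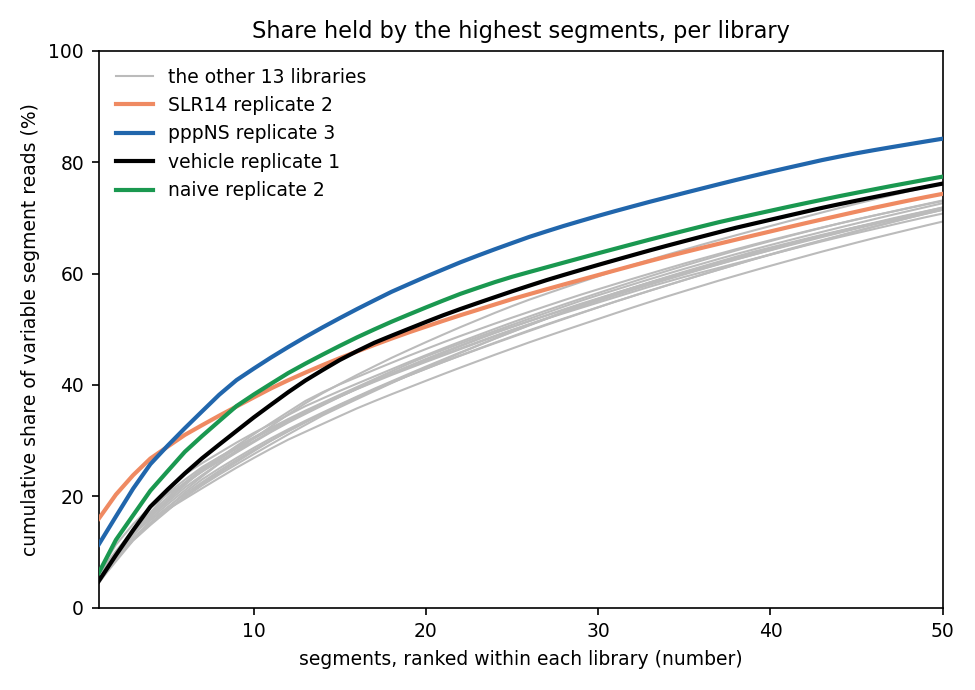
Cumulative share of V segment reads (%) held by the highest segments of each library, for rank 1 to 50. SLR14 replicate 2 starts at 15.97% with its first segment and then rises with the other libraries, whereas pppNS replicate 3 stays above every other library from rank 5 on.

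The order of the segments was largely shared by all libraries, whatever the treatment. Across the 151 segments, Spearman's rho between the shares of a pair of libraries had a median of 0.869 over the 16 pairs within a group and 0.871 over the 120 pairs between groups. These correlations are across segments within shared annotation and library type and describe these libraries only. The lowest median rho to the other 16 libraries was 0.725, in pppNS replicate 3, followed by 0.808 in naive replicate 2 and 0.822 in vehicle replicate 1. Iglv1 was the highest segment in 12 of 17 libraries, and its share over all 17 was 3.47% to 11.3% of V reads. Both Iglv1 and Igkv10-96 were among the 10 highest in all 17. In all, 33 segments reached the 10 highest of some library, 6 did so in at least 12 libraries and 14 in 1 library only.

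The largest share that any segment reached was that of the kappa segment Igkv5-39. In SLR14 replicate 2 it reached 260 CPM from 8194 reads, or 15.97% of all V reads, beside 31.0 and 18.2 CPM in the other SLR14 libraries. It was also the highest segment of naive replicate 2 at 230 CPM, beside 54.5 and 41.3 CPM in the other naive libraries, and stood at 91.1 CPM in vehicle replicate 1 against 14.3 in replicate 2. In SLR10, poly(I:C) and pppNS it ranged from 12.7 to 21.8 CPM. The 3 highest values came from 3 different groups, 1 of them treated with RNA, and no RNA group differed from vehicle in this segment past the threshold. Against naive it fell with poly(I:C), by 2.47 (SE 0.86, limma adjusted p = 0.0299), and was not past the threshold with SLR10, SLR14 or pppNS (limma adjusted p = 0.0799, 0.608 and 0.111). Leaving it out of the sums brought SLR14 replicate 2 to a share of 27.9% for its 10 highest segments and to an inverse Simpson index of 67.3, within the range of most libraries.

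Other segments stood high in single libraries in the same way. Igkv14-130 held 29.0 CPM, from 759 reads, in SLR14 replicate 1 and 0.77 to 3.08 CPM in the other 16 libraries, so its share there was 27.6 times the median of the others. Ighv5-4 held 219 CPM in naive replicate 2, or 5.94% of V reads, and 0.68 to 22.8 CPM elsewhere. Vehicle replicate 1 was highest for a set of segments: Igkv4-50 at 55.1 CPM against at most 9.39 elsewhere, Ighv1-76 at 46.4 against at most 7.99, and Igkv3-1 at 21.8 against at most 5.34. Igkv4-72 held 68.5 CPM in SLR10 replicate 3 and 104 in naive replicate 2, against at most 13.97 elsewhere. Ighv14-4 stood at 23.6 CPM in naive replicate 1 against at most 7.29, and Igkv4-61 at 10.9 CPM in pppNS replicate 2 against at most 5.21.

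Segments with at least 1% of V reads and at least 3 times their median share in the other libraries were counted in each library, a rule set after the data were seen. Naive replicate 2 had 7, together 27.2% of its V reads, vehicle replicate 1 had 5 with 13.6%, and SLR10 replicate 3 had 3 with 7.42%. The 3 poly(I:C) libraries had none, as did SLR10 replicates 1 and 2, SLR14 replicate 3, pppNS replicate 1 and vehicle replicate 2. Constant region genes moved with some of these: Ighg1, the constant region of the IgG1 class, stood at 298 CPM in vehicle replicate 1 and at 8.80 to 79.9 CPM elsewhere. In naive replicate 2, Ighg2b stood at 694 CPM and Ighg2c at 562, against at most 218 and 207 elsewhere. Which V segment was joined to which constant region was not measured.

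**Figure D4:**
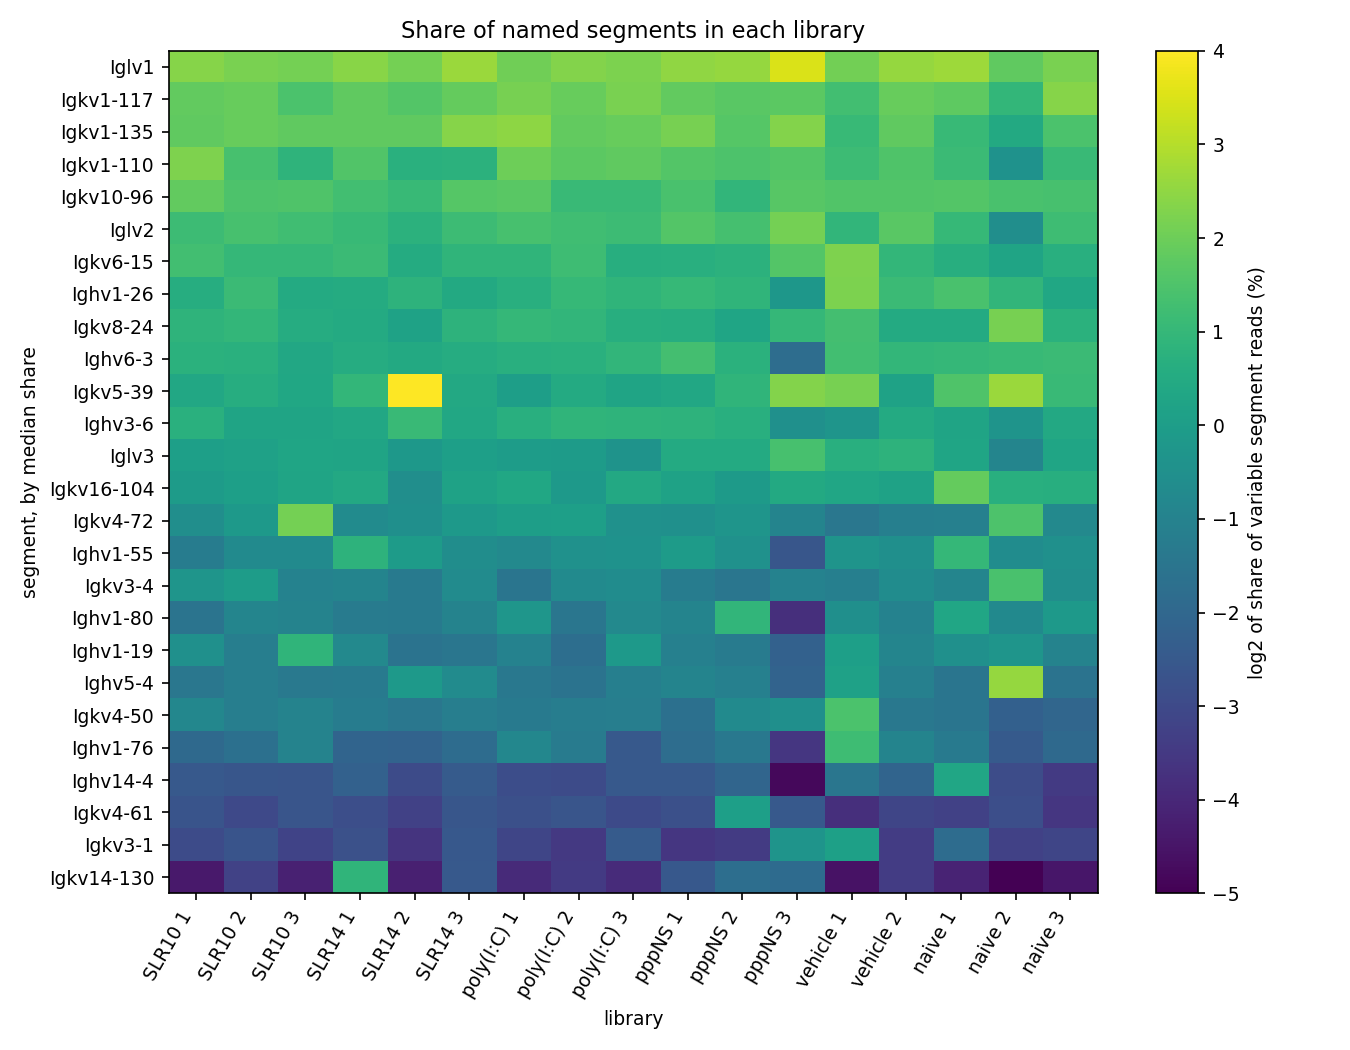
Share of V segment reads for the named segments (lines, ordered by median share) in each library (columns), coloured by the log2 of the percentage. Most lines keep 1 colour across the 17 libraries, with single bright cells such as Igkv5-39 in SLR14 replicate 2 (15.97%), Ighv5-4 in naive replicate 2 (5.94%) and Igkv14-130 in SLR14 replicate 1 (1.84%).

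Differences between groups were tested gene by gene with limma on log2(CPM + 0.5), with Benjamini-Hochberg adjustment over the 14012 genes tested and a threshold of 0.05. A change is on that scale, which understates the change of low genes. The 4 comparisons against vehicle share its 2 libraries, so they are given side by side and not as separate support. Dividing by the sum over named genes in place of the authors' scaling moved the median of all genes by as much as 0.59 on the log2 scale. A median over the 151 members is therefore given relative to the median of all genes, or else together with it. That distance differed by at most 0.054 between the scalings. A rescaling moves all genes of a library by the same factor, so this small change follows by construction, here and below, and is no check on the scaling.

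SLR10 against vehicle called none of the 151 segments, while it called 39.4% of all genes. At an unadjusted p under 0.05 there were 2, and edgeR and DESeq2 on the recovered reads called 4 each. With limma there were 7 calls, all lower, without vehicle replicate 2, and 1, higher, without SLR10 replicate 2 or 3. The members' median log2 difference lay 0.09 above that of all genes, with 90 segments positive and 61 negative. Scaled to the sum over named genes, the members' median was -0.39 and that of all genes -0.49, so the sign of the members' median depended on the scaling. On the authors' scaling, kappa segments had a median of 0.24 and heavy chain segments one of -0.13, beside -0.01 for all genes. For Iglv1 the values were 86.7, 64.0 and 69.0 CPM with SLR10 and 85.9 and 74.4 CPM in vehicle, which overlapped.

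SLR14 against vehicle called 1 segment higher and 3 lower, where 38.7% of all genes were called, 19.3% higher and 19.4% lower. Iglv3, a lambda segment with no 50-base stretch in common with another V transcript, stood at 18.8, 14.3 and 14.01 CPM with SLR14 and at 32.2 and 22.1 CPM in vehicle. The groups did not overlap, and Iglv3 fell by 0.76 (SE 0.28, limma adjusted p = 0.042). Ighv1-76 fell by 2.10 (limma adjusted p = 0.042), from 46.4 and 6.53 CPM to 3.71, 3.68 and 3.84 CPM. Both calls were lost without vehicle replicate 1, where the differences were -0.49 (limma adjusted p = 0.344) and -0.73 (limma adjusted p = 0.573). The Iglv3 call was also lost without SLR14 replicate 2 or 3, and the Ighv1-76 call without any 1 of the SLR14 libraries. Of the 4 SLR14 calls, Igkv4-92 alone was also past the threshold with naive as control. The other calls, named after their values were seen, were low genes near the minimum. Ighv14-1 stood at 1.07, 0.95 and 1.38 CPM against 3.32 and 3.73 in vehicle, and Igkv4-92 at 1.65, 2.60 and 2.03 CPM against 0.92 and 0.91. The calls of Ighv14-1 and Igkv4-92 were lost without either vehicle library, as was every SLR14 call without vehicle replicate 1, and 8 segments were called without vehicle replicate 2. Without SLR14 replicate 1, 2 or 3, 2 segments were called each time.

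Set directly against each other, SLR14 and SLR10 called no segment, and no gene of all those tested (percentage called 0). At an unadjusted p under 0.05, 2 segments differed, and edgeR and DESeq2 called none. For Iglv1 the difference, SLR14 minus SLR10, was 0.11 on the log2 scale with a 95% interval from -0.37 to 0.60, and for Iglv3 it was -0.17 (-0.70 to 0.36). The half-width of the interval over the segments had a median of 1.03 and ran from 0.488 to 2.25. A call also needs an adjusted p under the threshold, so differences of about 1 on the log2 scale could be missed for many segments. Igkv14-130 differed by 1.69, but it was named for its 1 high SLR14 library, so no test of that difference is given. Its mean was 3.66 CPM in the RNA libraries and 0.96 in the controls, so it is a member only through the RNA libraries.

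Poly(I:C) against vehicle called 2 segments, both lower, where 35.9% of all genes were called, 17.3% lower. Iglv3 stood at 13.5, 8.54 and 10.1 CPM against 32.2 and 22.1 in vehicle. The groups did not overlap, the fall was 1.30 (SE 0.28, limma adjusted p = 0.00203), and the call held in all 15 alternatives run for it, with limma, edgeR or DESeq2 adjusted p up to 0.0454. Iglc2, a lambda constant region gene, fell too, by 1.24 (limma adjusted p = 0.00127), from 307 and 277 CPM to 142.3, 105 and 125. Ighv14-1, named after its values were seen, stood at 1.24, 0.78 and 1.08 CPM, against 3.32 and 3.73, a fall of 1.403 (limma adjusted p = 0.0179). Its call was lost without poly(I:C) replicate 2 or either vehicle library, and with naive as control, where the difference was -0.52 (limma adjusted p = 0.282). Over all segments the median difference lay 0.36 below that of all genes, with 113 of 151 negative. Without vehicle replicate 1 or poly(I:C) replicate 2 there was 1 call, and without poly(I:C) replicate 1 or vehicle replicate 2 there were 4 and 8.

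With pppNS, 4 segments were called against vehicle, all lower, where 4.3% of all genes were called in either direction and 1.35% lower. The median lay 0.98 below that of all genes, and 149 of 151 segments were negative. Iglv3 stood at 15.6, 14.5 and 7.75 CPM, below both vehicle values, and fell by 1.11 (limma adjusted p = 0.035). Igkv6-15 stood at 17.3, 17.8 and 8.96 CPM against 97.2 and 24.3, and fell by 1.76 (limma adjusted p = 0.0372). Ighv1-76 fell by 2.98 (limma adjusted p = 0.0402), with 3.17, 3.90 and 0.25 CPM. Ighv14-1 fell by 1.77 (limma adjusted p = 0.0278), with 0.04 CPM, 1 read, in replicate 3. Of these 4, Iglv3 alone was also past the threshold with naive as control. Without pppNS replicate 3 the members' median was -0.37, that of all genes 0.01, and only Ighv14-1 was called. The calls of Iglv3 and Ighv14-1 were lost without either vehicle library as well. Without vehicle replicate 1 none was called (members' median -0.80, all genes 0.01), without vehicle replicate 2 there were 7 calls, and without pppNS replicate 1 there were 8. Erythroid markers summed to 9348, 8245 and 74219 CPM in the pppNS libraries and to 3845 and 3127 in vehicle. All 14 tested had a positive log2 difference, with a median of 2.99 and none past the threshold, and their part in the result was not tested.

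Vehicle against naive, which sets the carrier beside no treatment, called no segment (limma), where 0.05% of all genes were called. At an unadjusted p under 0.05 there were 21, of which 20 were kappa segments, edgeR called none and DESeq2 called 8, all lower. With limma there was 1 call, lower, without naive replicate 1 or 3. The median lay 0.39 below that of all genes. Igkv16-104 stood at 25.2 and 14.2 CPM in vehicle and at 68.4, 59.6 and 29.7 CPM in naive, which did not overlap, with a difference of -1.36 (limma adjusted p = 0.477). Igha, the constant region of the IgA class, did fall, from 999.9, 693 and 1382 CPM in naive to 215 and 178 in vehicle, a change of -2.33 (limma adjusted p = 0.024).

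The mean of the 4 RNA groups was then set against the mean of vehicle and naive, which uses all 17 libraries. Here 33 of 151 segments (21.9%) were lower and none was higher, beside 25.4% of all genes lower and 52.2% called in either direction, so the share called lower was near that of all genes. The 33 include Ighv1-63, which is a member only through its controls: its mean was 0.85 CPM in the RNA libraries and 1.42 in the controls, and 32 remain without it. The median lay 0.56 below that of all genes, and 140 of 151 segments were negative. By locus, 12 of 70 heavy chain, 19 of 78 kappa and 2 of 3 lambda segments fell. Dividing by the sum over named genes gave 90 segments lower (59.6%), but the share of all genes called lower went up to 47.5% as well. That scaling moved the median of all genes by -0.43 and the members' distance from it by -0.01. Without pppNS replicate 3 the count was 44, with a members' median of -0.37 beside 0.03 for all genes. The share of all genes called without that library was not computed, so the count of 44 is not read as a result about the members.

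Iglv1 stood at a lowest 33.6, median 63.1 and highest 86.7 CPM in the 12 RNA libraries and at 74.4 to 128 CPM in the 5 controls, which overlapped, and fell by 0.58 (SE 0.15, limma adjusted p = 0.00464). Iglv3 ranged from 7.75 to 19.3 CPM against 19.7 to 32.2 in the controls, with no overlap, and fell by 0.80 (SE 0.16, limma adjusted p = 8.21e-04). Igkv16-104 ranged from 4.05 to 21.4 CPM against 14.2 to 68.4, and fell by 1.22 (SE 0.28, limma adjusted p = 0.0021). These 3 calls held in all 28 alternatives run for each. Igkv10-96, found among the 10 highest of every library, fell by 0.83 (limma adjusted p = 0.0131). Ighv1-26, Ighv1-76, Igkv6-15 and Igkv3-4 fell by 1.29, 1.47, 0.82 and 1.13 (limma adjusted p = 0.0191, 0.0133, 0.0168 and 0.0356). These, and Igkv10-96, lost their calls without vehicle replicate 1. Ighv1-26 also lost its call without naive replicate 2, and Igkv3-4 without vehicle replicate 2 or any of SLR10 replicate 3, SLR14 replicate 2 and poly(I:C) replicates 1 and 2, with limma adjusted p of 0.0502 to 0.0864. The count of segments was 10 without vehicle replicate 1 and 17 without naive replicate 2, all lower in both cases.

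**Figure D5:**
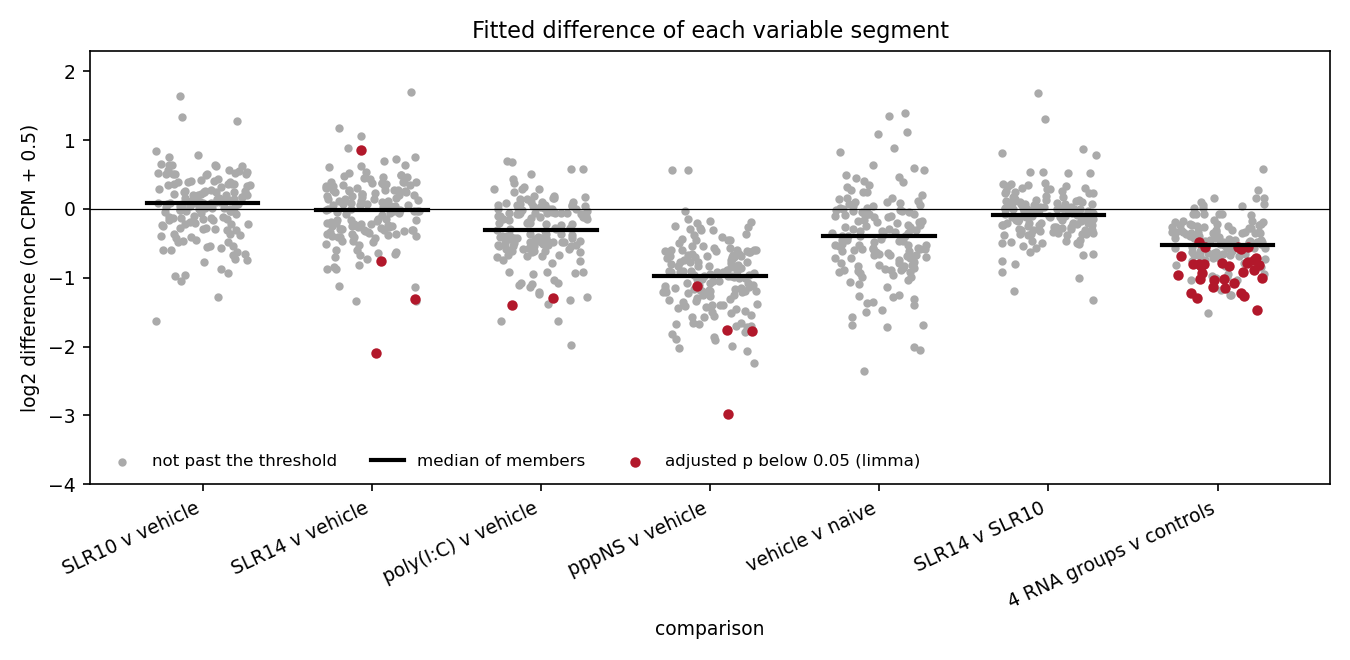
Fitted log2 difference of each of the 151 V segments (points, on CPM + 0.5) in 7 comparisons, with the median of the members, not set relative to all genes, as a bar and segments past the limma threshold in red. The bars lie near 0 for SLR10 and SLR14 against vehicle, at -0.97 for pppNS against vehicle and at -0.52 for the 4 RNA groups against both controls, where 33 points are red.

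With naive in place of vehicle as the control, more segments were called lower: 12 for SLR10, 12 for SLR14 beside 1 higher, 26 for poly(I:C) and 55 for pppNS, where 49.3%, 47.5%, 46% and 10.9% of all genes were called in either direction. The share of all genes called lower against naive was not computed. The 55 for pppNS include replicate 3, and the comparison with naive was not run without that library. Igkv16-104 was lower in each, by 1.57, 1.66, 1.82 and 2.57 on the log2 scale (limma adjusted p = 0.00715, 0.00524, 0.00297 and 0.0014). Iglv1 was lower with SLR10, poly(I:C) and pppNS (limma adjusted p = 0.0397, 0.00186 and 0.00529) and not past the threshold with SLR14, where it differed by -0.49 (limma adjusted p = 0.0919). Most calls made against vehicle were not past the threshold against naive, and their differences were smaller. With SLR14, Iglv3 differed by -0.48, Ighv1-76 by -0.70 and Ighv14-1 by -0.43 (limma adjusted p = 0.127, 0.431 and 0.385), while Igkv4-92 rose by 0.67 (limma adjusted p = 0.0308). With pppNS, Igkv6-15 differed by -1.26, Ighv1-76 by -1.59 and Ighv14-1 by -0.89 (limma adjusted p = 0.0568, 0.167 and 0.159). Iglv3 was lower against naive with poly(I:C) and pppNS, by 1.02 and 0.83 on the log2 scale (limma adjusted p = 0.0037 and 0.0441).

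The other antibody genes were read from lists of known genes in the same fit. In the 4 RNA groups against both controls, 52.2% of all genes were called in either direction and 25.4% lower. The list counts below are descriptions to be read beside these shares. All 7 heavy chain constant genes tested and both light chain ones fell. Igkc fell by 0.66 (limma adjusted p = 0.0194), Ighm, the constant region of IgM, by 0.76 (limma adjusted p = 0.0066) and Iglc2 by 0.85 (limma adjusted p = 2.01e-04). None of the 9 joining segments tested, of 12 listed, was called by limma, with a median of 0.40 and none at an unadjusted p under 0.05, and edgeR and DESeq2 called 0 as well. Of 15 plasma cell genes, 6 fell and 3 rose. Among those that fell were Sdc1, the plasma cell surface marker CD138, by 1.64 (limma adjusted p = 3.41e-06), Mzb1, a chaperone cofactor of antibody-secreting cells, by 1.02 (limma adjusted p = 8.98e-05), and Igj, the chain that links IgM and IgA units, by 1.09 (limma adjusted p = 5.45e-04). Prdm1, which encodes the plasma cell regulator Blimp-1, rose by 0.79 (limma adjusted p = 0.00178).

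Sdc1 stood at 2.34 to 3.06 CPM in the 9 libraries of SLR10, SLR14 or poly(I:C), at 6.03, 8.81 and 3.80 CPM with pppNS, and at 8.60 to 20.1 CPM in the controls. Of 17 B cell genes, 9 fell and 1 rose in the same comparison, where 52.2% of all genes were called, 25.4% lower. With so many genes called, the counts for the lists of this comparison are not read as results about a cell type. Fcer2a, the low-affinity IgE receptor, fell by 2.60 (limma adjusted p = 1.22e-07), whereas Ms4a1, which encodes CD20, differed by -0.02 (limma adjusted p = 0.926). Of the octamer-binding factors, Pou2f1 fell by 0.50 (limma adjusted p = 0.0243), and Pou2f2 and the B cell coactivator Pou2af1 were not past the threshold at 0.15 and 0.19. Of 7 class switch and hypermutation genes, 2 rose and 1 fell. Of 7 genes of V(D)J recombination and the surrogate light chain, 2 reached the minimum level and 1 of them fell. Markers of other cells moved in this comparison too. Of the T cell genes 12 of 14 fell, with sums of 268 to 459 CPM with SLR10, SLR14 or poly(I:C), 587 to 794 with pppNS and 610 to 869 in the controls. Against vehicle, pppNS called 0 of the T cell, B cell and plasma cell genes, where 4.3% of all genes were called. SLR10, SLR14 and poly(I:C) called 8, 9 and 8 of the T cell genes lower, where 39.4%, 38.7% and 35.9% of all genes were called. Of the neutrophil genes 7 of 12 rose, with sums of 361 to 1621 CPM against 203 to 377. Of 8 natural killer cell genes 3 rose and 2 fell, of 11 macrophage and dendritic cell genes 2 rose and 8 fell, and of 14 erythroid genes 1 rose. The natural killer cell sums were 167 to 300 CPM with SLR10, SLR14 or poly(I:C), 57.7 to 92.8 with pppNS and 73.0 to 108 in the controls. The part of these cells in the V segment values was not tested.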

How the data were processed

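RNA of 17 spleen libraries was measured by stranded mRNA sequencing from 500 ng of total RNA, per the labels' protocols. The submitters' processing notes name the builds GRCm38 and mm10 and, without their roles, the tools HTSeq, edgeR, TopHat2 2.0.6, TopHat, FastQC and SAMtools 1.4. Read length, annotation and strand setting are not given in the sources used here. The deposited values are a signal per gene, named CPM in the file header, which the authors normalised with edgeR. All values (100%) were whole multiples of 1 read within 0.01 reads, so whole reads were recovered for the count tests.

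Of 39184 lines, 5 without a name, 699 named #N/D, 27 whose names had become dates and 113 further lines of the 87 names that occur more than once were left out, which left 38340 genes. Lines without a gene symbol held 28.1% to 46.1% of a library's reads. Libraries were grouped by their labels. The 14012 genes that reached 1 CPM in 2 or more libraries, all 151 members among them, were tested with limma 3.58.1 in R 4.3.3 on log2(CPM + 0.5), with 1 mean per group over all 17 libraries, a mean-variance trend, Benjamini-Hochberg adjustment and a threshold of 0.05. The fit was also run on simulated data, where only genes with a mean of at least 5 CPM were changed and all genes had the same spread setting. Its outcome is not given here, and it does not cover lower segments or single high libraries. Sums, shares and ratios are descriptions. Alternatives were edgeR 4.0.16 and DESeq2 1.42.0 on recovered reads, other pseudocounts, filters, scalings and controls, a replicate block, and libraries left out. V exons, coordinates and shared 50-base stretches came from GENCODE vM21 transcripts. Counting error limits the lowest segments: 3 reads are 0.0525 to 0.129 CPM.

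Members and lists were chosen with earlier results of these data known. Segments were named by these rules: the 10 highest means, the highest of each locus in each library, the 4 largest falls and rises per comparison with a mean of at least 5 CPM, the 8 largest ratios of a share in 1 library to the median of the other 16, and the lambda locus. Ighd, Iglc1, Iglc3 and the lambda joining segments were not analysed here.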

Additional observations from a re-analysis of the deposited data

How the results depend on the processing

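The call counts were small and moved with most choices. The share of all genes called was computed only for the main fit, for naive as control and for the scaling to named genes. Counts of members under the other choices, here and above, have no such share beside them and are not read as results about the members. The main counts were 0 for SLR10, 4 for SLR14, 2 for poly(I:C) and 4 for pppNS against vehicle, 0 for vehicle against naive, 0 for SLR14 against SLR10 and 33 for the 4 RNA groups against both controls. SLR14 against SLR10 stayed at 0 in every alternative run. With a pseudocount of 0.1 the counts were 2 for SLR14, 1 for poly(I:C) and 2 for pppNS. With a pseudocount of 2 they were 1 for SLR10, 4 for poly(I:C) and 1 for vehicle against naive. Without the filter they were 2 for SLR14 and 2 for pppNS, and with a minimum of 5 CPM 2 for SLR14 and 1 for poly(I:C). Scaled to the sum over named genes they were 2 for SLR10, 14 for poly(I:C) and 90 for the 4 RNA groups, all lower, while 35%, 38.4% and 47.5% of all genes were called lower. That scaling moved the median of all genes by -0.48, -0.59 and -0.43 and the members' distance from it by at most 0.015 in these 3. For SLR14 it called 8.49% of all genes higher and 37.3% lower. With edgeR they were 4, 7, 7 and 8 for SLR10, SLR14, poly(I:C) and pppNS. With DESeq2 they were 4, 12, 12 and 15, with 8 for vehicle against naive and 52 for the 4 RNA groups. With naive as control they were 12, 13, 26 and 55. Leaving out 1 library at a time gave 0 to 7 calls for SLR10, 0 to 8 for SLR14, 1 to 8 for poly(I:C), 0 to 8 for pppNS, 0 to 1 for vehicle against naive and 10 to 48 for the 4 RNA groups. A group of 1 library was then assumed to vary like the others. After the data were seen, pppNS 3 and naive 3 were left out together, which gave 1 call for pppNS, 2 for vehicle against naive and 56 for the 4 RNA groups. Leaving out pppNS 3, naive 2 and SLR14 2 together, also chosen after the data were seen, gave 15 for SLR14, 1 for pppNS and 4 for vehicle against naive. Of the single calls followed through the alternatives, none changed direction, and they missed the threshold 66 times in all.

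Equal replicate numbers did not pair the libraries: the median correlation of deviations from group means was 0.030 for the 40 pairs with equal numbers and -0.028 for the 80 with different numbers. With the replicate block the counts were 1, 3, 2 and 3 for SLR10, SLR14, poly(I:C) and pppNS, 0 for vehicle against naive and for SLR14 against SLR10, and 25 for the 4 RNA groups.

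Scaled to the sum over named genes, mean V levels were 2298 (SLR10), 2154 (SLR14), 1651 (poly(I:C)), 1454 (pppNS), 3449 (vehicle) and 4831 (naive) on a scale where named genes have the same sum in each library. With only members of at least 5 CPM they were 1327 CPM for SLR10 and 1295 CPM for SLR14. The 20 highest segments held 43.8%, 46.1%, 44.3%, 48.2%, 47.7% and 49.4% in the same order of groups, and the same 10 segments in each library held 27.1% for SLR10 and 26.2% for naive. Set against Igkc and Ighm only, the V to constant ratio was 0.313, 0.322, 0.347, 0.254, 0.339 and 0.259 for SLR10, SLR14, poly(I:C), pppNS, vehicle and naive, with 0.354, 0.325 and 0.0827 in the pppNS libraries. On that measure the naive libraries did not all lie below the others, with 0.303 in naive replicate 1 and 0.291 in SLR10 replicate 2.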

Other observations

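Of the 64 lines that match the name pattern and lie under the mean of 1 CPM, 7 were at 0 in every library. The highest single values among them were in naive libraries: Ighv1-31 reached 7.74 CPM in naive replicate 1 (median over the 17 libraries 0.379), Igkv2-116 reached 6.79 CPM in naive replicate 3 (median 0.453) and Igkv19-93 reached 6.65 CPM in naive replicate 2 (median 0.610). These 3 were chosen after their values were seen.

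The share of switched classes among heavy chain constant region CPM (all but Ighm) was 28.7%, 18.2% and 30.2% in the naive libraries, 19.9% and 10.9% in vehicle, 23.8% in pppNS replicate 3 and 9.88% to 18.1% in the other libraries.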
